A study of Mus musculus with 4 samples.

Results

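The genes described here are 40 genes of glycolysis and of the hypoxia response, of 21388 genes named on the array, and they were read by 74 of its 41174 probes. A gene was a member if its symbol in the scanner's files was on a list of 23 genes that take up or break down glucose and 17 that encode the hypoxia-inducible factors (HIF) or are known targets of them. Each member is represented by its brightest probe that was well above background, a choice that did not look at the ratio between genotypes. All 40 members were tested, and all 40 were well above background in both channels on all 4 arrays.

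Transcripts of pooled whole embryos that carried V1330M, an ENU-induced point mutation, on both copies of Btaf1 were compared with those of pooled wild-type embryos. The encoded protein uses ATP to strip the TATA-binding protein from DNA. Both genotypes came from a hybrid stock of C57BL/6J and FVB/NJ in which FVB/NJ made up 50 to 90%. Embryos of 3 to 5 somites were used where possible, and 300 ng of total RNA was labelled per dye. In the age_matched set, litter mates were paired and up to 5 somites of difference were allowed; in the stage_matched set, embryos were paired by somite number. In each set, replicate 1 carried the mutant pool in Cy5 and replicate 2 carried the same pools with the dyes exchanged. Both arrays of a set therefore count as 1 replicate, and n = 2 sets for every mean. The labels give neither the number of embryos in a pool, nor whether the sets shared embryos, nor whether yolk sacs were kept. The label of whole embryo was checked on 13 markers of the early somite stage, of which 12 were well above background and En1, a midbrain gene, was not. Of the 12, limma called Tbx6, a gene of presomitic mesoderm, higher in mutant pools (mean log2 ratio 0.89, adjusted p = 0.0277) and Meox1, a gene of somites, higher as well (0.41, adjusted p = 0.049). In whole embryos, fewer cells of a type and less RNA per cell cannot be told apart.

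Glycolysis splits glucose into pyruvate, which is turned to lactate when oxygen is short or growth is fast, and mouse embryos before the start of circulation rely on it heavily. HIF is a pair of proteins, an oxygen-regulated alpha subunit and the stable partner ARNT, that binds short DNA motifs and raises transcription of glycolytic enzymes and of genes for vessel growth and mitochondrial turnover. With oxygen present, prolyl hydroxylases mark the alpha subunit for destruction, and some of these hydroxylases are HIF targets themselves, so the pathway restrains its own activity. HIF activity is set mainly at the level of the alpha protein, which an array of transcripts does not measure.

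Each value below is a log2 ratio with mutant on top, so that a negative value means a lower level in mutant pools. A gene was called when its adjusted p in limma, a linear model with error moderated across genes, was below 0.05 after Benjamini-Hochberg adjustment over all tested probes. Of the 40 members, 2 were called lower, which is 5% of them, against 2.71% of all 13599 genes tested. These were Pgam2, the muscle form of phosphoglycerate mutase, and Ankrd37, a small ankyrin-repeat protein known as a HIF target. No member was called higher (0 of 40, against 2.04% of all genes tested). At an unadjusted limma p under 0.05, 16 members (40%) lay lower and 1 (2.5%, Hif1a) lay higher, against 11.1% and 11.4% of all genes tested. The count of 16 was 5 without age_matched replicate 1 (5.7% of all genes tested lay lower at that p) and 8 with the scanner's processed signals (9.15%). The log2 ratio was negative on all 4 arrays for 12 members (30%), against 13.6% of all genes tested. It was positive on all 4 for 1 member (2.5%), against 14.9% of all genes tested.

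Of the 40 member means 31 were negative, against 6218 of 13599 over all genes tested. The members together had a median log2 ratio of -0.20, against 0.02 for all genes tested. The median was -0.25 in the age_matched set and -0.11 in the stage_matched set. Most of these shifts were small: the middle of the genes tested, between the 25th and 75th percentile, spanned -0.11 to 0.13, and their 5th percentile was -0.35. Of the members, 5 (Pgam2, Ankrd37, Egln1, Higd1a and Pfkp) lay below that 5th percentile. Median centring of each array in place of loess moved the share of higher calls among all called genes to 18.3%, against 42.9% with loess. It kept the same 2 member calls. Without Pgam2, the median of the other 39 members was -0.19.

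**Figure D1:**
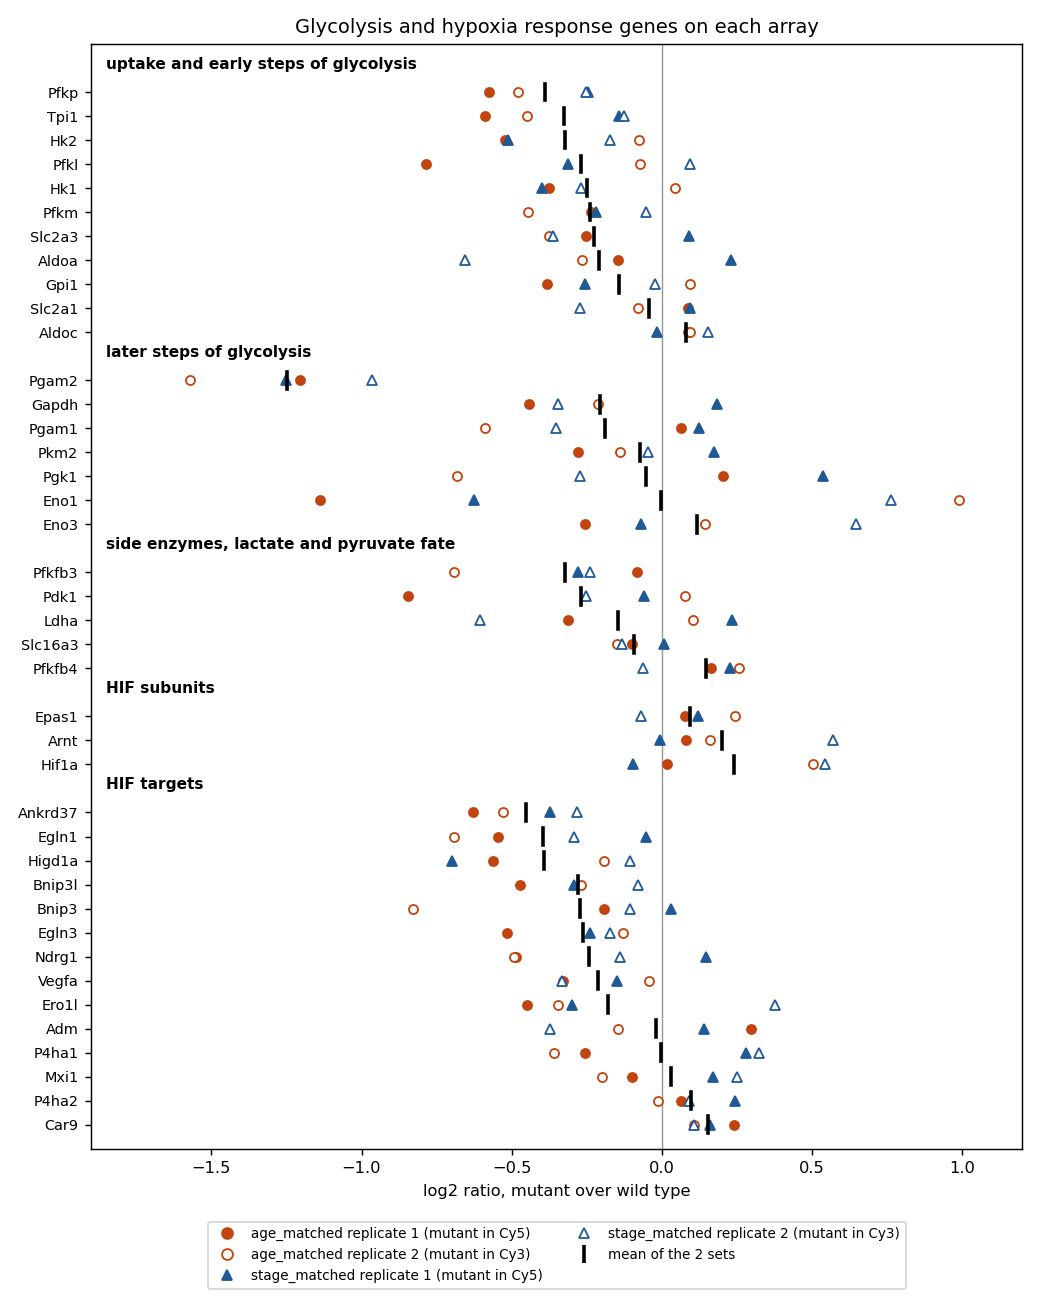
The horizontal axis gives the log2 ratio of mutant over wild type and each row is a member, grouped by role and ordered by its mean. Circles are arrays of the age_matched set and triangles those of the stage_matched set, filled where the mutant pool was in Cy5 and open where it was in Cy3; the bar is the mean of the 2 sets. Pgam2 stands apart on all 4 arrays, while Eno1 falls on both sides of 0 by dye.

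The member furthest from 0 was Pgam2, which encodes the phosphoglycerate mutase of heart and skeletal muscle. Its normalized log2 intensity in mutant pools was 9.03 and 8.93 on the age_matched arrays and 8.87 and 9.05 on the stage_matched arrays, against 10.23 and 10.50 on the age_matched and 10.12 and 10.01 on the stage_matched arrays in wild-type pools. Every mutant value lay below every wild-type value. The log2 ratios were -1.20 and -1.57 in the age_matched set and -1.25 and -0.96 in the stage_matched set. The mean was -1.25 ± 0.20 (SD, n = 2 sets, moderated limma SE 0.10, limma adjusted p = 0.00277), a level 2.37-fold lower in mutant pools. This placed Pgam2 19th from the lowest of the 13599 genes tested. Its probe is placed at chr11:5701822-5703040 of mm9 by the files. No annotation of that build was used, and the exon or other gene part that a probe reads is not stated.

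Pgam2 is known as a gene of differentiated muscle, and the heart is the muscle present at this stage. The heart muscle list was lower in the same arrays, with 12 of its 13 genes called lower and a median log2 ratio of -1.26. The summed linear intensity of those 13 genes was between 53400 and 79170 in mutant pools, against 134200 to 154400 in wild-type pools. None of the 13 fell below the background filter. Its part in the Pgam2 result was not tested. The median of the heart list was -1.76 in the age_matched set and -0.77 in the stage_matched set, while Pgam2 had -1.39 in the age_matched set and -1.11 in the stage_matched set. The difference between sets for Pgam2, age_matched minus stage_matched, was -0.28 (limma adjusted p = 0.577).

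The other enzyme of the same step, Pgam1, the form of brain and most tissues, had a mean of -0.19 (adjusted p = 0.285). Eno3, the enolase of muscle and the enzyme after Pgam2 in the pathway, had -0.26 and 0.14 in the age_matched set and -0.07 and 0.65 in the stage_matched set. Its mean of 0.12 (limma adjusted p = 0.584) lay on the other side of 0 from Pgam2, with values on both sides of 0. Pfkm, the phosphofructokinase subunit of muscle, had a mean of -0.24 (limma adjusted p = 0.198) and was negative on all 4 arrays. Pgam2 was thus called, while Eno3 and Pfkm were not. These members were picked with their values known, and no list of muscle members was set beforehand.

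The 250 bases before the RefSeq start of Pgam2 are shown because it is the called glycolytic enzyme and its promoter differs from those of most members in the motifs it holds. They lie at chr11:5803797-5804046 of GRCm38.p6 (minus strand, printed 5′ to 3′ toward the gene), and the capitals mark a match to the MEF2 site, a motif of muscle genes, that begins 80 bases before the start.
Pgam2 promoter: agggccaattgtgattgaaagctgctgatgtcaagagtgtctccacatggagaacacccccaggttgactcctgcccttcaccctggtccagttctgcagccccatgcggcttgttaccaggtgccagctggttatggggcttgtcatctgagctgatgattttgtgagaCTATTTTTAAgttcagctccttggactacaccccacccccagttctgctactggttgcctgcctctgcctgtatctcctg
The MEF2 site was searched on both strands after this sequence had been seen. It was found in 1 of 52 member promoters (1.92%) and in 2.92% of all 32851 promoters of the same length. Pgam2 was 1 of 3 members with a promoter in the table in which the HIF core motif described further on had no match.

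**Figure D2:**
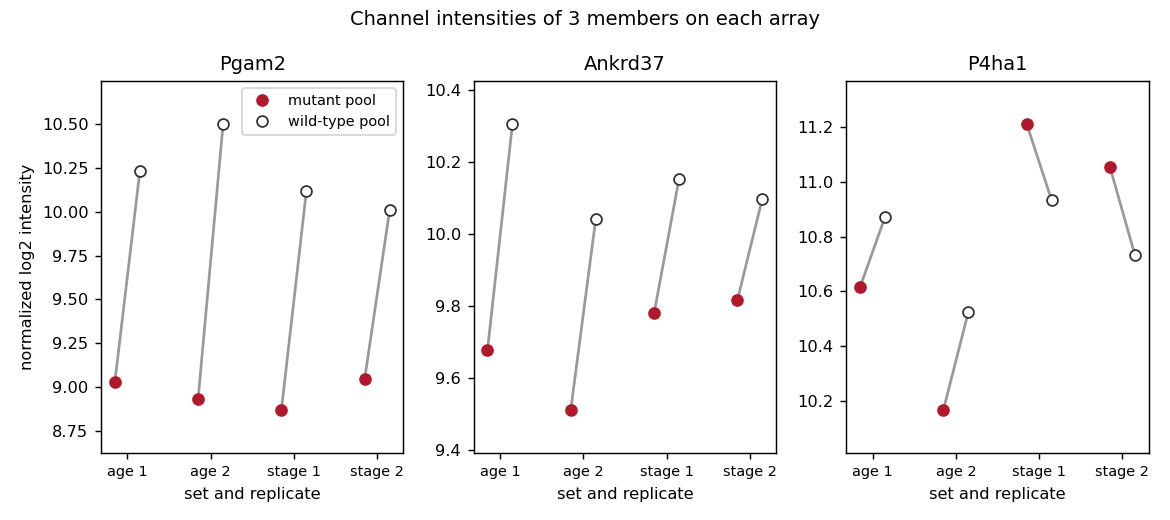
Each panel gives 1 member, with the normalized log2 intensity of the mutant pool (filled) and of the wild-type pool (open) joined for each array; the vertical axes differ and do not start at 0. In Pgam2 and Ankrd37 the mutant point lies below its wild-type partner on all 4 arrays, and in P4ha1 it lies below on the age_matched arrays and above on the stage_matched arrays.

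The 11 members of glucose uptake and the early, energy-consuming steps had a median of -0.24, with 10 negative means. None was called by limma (7 lower and 0 higher at an unadjusted p under 0.05). Over all genes tested, 6218 of 13599 means were negative, and 11.1% lay lower and 11.4% higher at that p. The same shares apply to the groups below, and group counts were not followed under other settings. The lowest of the 11 was Pfkp, the platelet-type subunit of phosphofructokinase, the enzyme that commits sugar to glycolysis. It had -0.58 and -0.48 in the age_matched set and -0.25 and -0.25 in the stage_matched set, with a mean of -0.39 ± 0.20 (SD, n = 2 sets; limma adjusted p = 0.0749). All 4 values were negative. Pfkl, the liver-type subunit, had -0.78 and -0.07 in the age_matched set and -0.31 and 0.09 in the stage_matched set, with a mean of -0.27 (limma adjusted p = 0.187). Its 2 larger values came from the arrays with the mutant pool in Cy5.

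Tpi1, the isomerase of the triose phosphates, had -0.59 and -0.45 in the age_matched set and -0.14 and -0.13 in the stage_matched set, with a mean of -0.33 ± 0.27 (SD, n = 2 sets; limma adjusted p = 0.142). The dye-exchanged arrays of each set lay close together and the age_matched pair lay further from 0, but the difference of -0.39 between sets did not pass its test (limma adjusted p = 0.32). Hk2, the hexokinase known as HIF-inducible, had -0.52 and -0.08 in the age_matched set and -0.51 and -0.17 in the stage_matched set, with a mean of -0.32 ± 0.03 (SD, n = 2 sets; limma adjusted p = 0.0883). Its SD between sets was small while its dye-exchanged arrays differed, as the larger size came from the Cy5 arrays in both sets.

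The other members of these steps lay nearer 0. Hk1, the widely expressed hexokinase, had a mean of -0.25, and Slc2a3, the glucose transporter GLUT3, had -0.23. Aldoa, the main aldolase, had -0.21, and Gpi1, which turns glucose 6-phosphate into fructose 6-phosphate, had -0.14. Slc2a1, the glucose transporter GLUT1, had -0.04, and Aldoc, the aldolase of brain, had 0.08. None of these 6 passed the test (adjusted p between 0.171 for Hk1 and 0.824 for Slc2a1).

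The 7 members of the later, energy-yielding steps had a median of -0.07, with 6 negative means, and Pgam2 was the 1 called. Gapdh, the dehydrogenase of glyceraldehyde phosphate, had a mean of -0.20, and Pkm2, the gene of muscle and embryonic pyruvate kinase, had -0.07 by its brightest probe. Pgk1, the X-linked phosphoglycerate kinase, had 0.20 and -0.68 in the age_matched set and 0.54 and -0.27 in the stage_matched set, for a mean of -0.05. Eno1, the main enolase, had -1.14 and 0.99 in the age_matched set and -0.62 and 0.76 in the stage_matched set, for a mean of -0.0035 (limma adjusted p = 0.988).

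The sign for Eno1 and Pgk1 followed the dye and not the genotype. For Eno1 the mean was -0.88 with the mutant pool in Cy5 and 0.87 with it in Cy3, a gap of -1.76. For Pgk1 the means were 0.37 and -0.48, a gap of 0.85. The 95th percentile of the absolute gap over all genes was 0.68, and these 2 were the members above it. The median absolute gap was 0.22 over the members, against 0.21 over all genes. Transcripts of Gapdh, Eno1, Pgk1, Aldoa and other enzymes have near-identical copies elsewhere in the genome, and the values of such genes are uncertain because a probe may read those copies too.

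The 5 side enzymes and genes of pyruvate and lactate fate had a median of -0.15, with none called by limma (2 lower and 0 higher at an unadjusted p under 0.05). Pfkfb3, which makes the activator of phosphofructokinase, had -0.08 and -0.69 in the age_matched set and -0.28 and -0.24 in the stage_matched set, with a mean of -0.32 ± 0.09 (SD, n = 2 sets; limma adjusted p = 0.0928). Pfkfb4, a related enzyme, had a mean of 0.15 (limma adjusted p = 0.401). Pdk1, a pyruvate dehydrogenase kinase, had -0.84 and 0.08 in the age_matched set and -0.06 and -0.25 in the stage_matched set. Its mean was -0.27 (limma adjusted p = 0.16). In this probe a single array gave most of the mean, whereas the second tested Pdk1 probe had -0.54 and -0.61 in the age_matched set and -0.10 and -0.22 in the stage_matched set, with a mean of -0.37 (limma adjusted p = 0.118). Ldha, the lactate dehydrogenase subunit of anaerobic glycolysis, had a mean of -0.15, and Slc16a3, the lactate exporter MCT4, had -0.09.

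**Figure D3:**
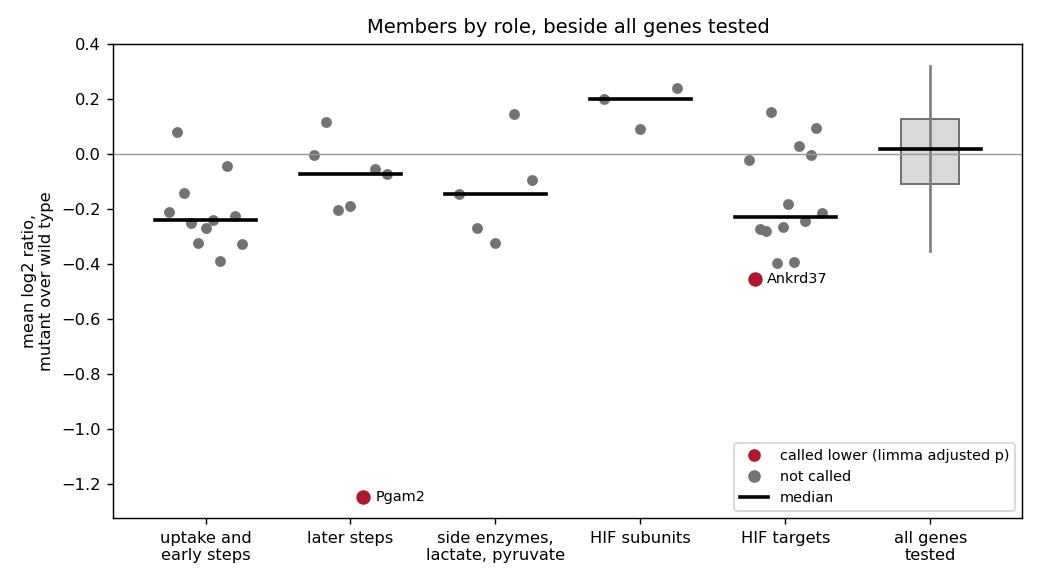
Each point is the mean log2 ratio of a member, mutant over wild type, grouped by role, with the group's median as a bar. The box and line at the right give the 25th to 75th and the 5th to 95th percentiles of all genes tested. The points of the HIF subunits lie above 0, 11 of the 14 HIF targets lie below it, and Pgam2 at -1.25 lies far below the rest.

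The 3 HIF subunits had positive means and none was called by limma (1 higher, Hif1a, at an unadjusted p under 0.05). Hif1a, the alpha subunit that responds to low oxygen in most cells, had 0.02 and 0.50 in the age_matched set and -0.10 and 0.54 in the stage_matched set, with a mean of 0.24 (adjusted p = 0.168). Both larger values came from the arrays with the mutant pool in Cy3. Arnt, the stable partner, had 0.08 and 0.16 in the age_matched set and -0.01 and 0.57 in the stage_matched set, with a mean of 0.20 (adjusted p = 0.259). Epas1, the alpha subunit HIF-2 of endothelium and other cells, had a mean of 0.09 (adjusted p = 0.613), which was 0.00030 with median centring.

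Among the 14 HIF targets the median was -0.23, with 11 negative means and 1 member called, Ankrd37. Its normalized log2 intensity in mutant pools was 9.68 and 9.51 on the age_matched arrays and 9.78 and 9.82 on the stage_matched arrays, against 10.31 and 10.04 on the age_matched and 10.15 and 10.10 on the stage_matched arrays in wild-type pools. The highest mutant value lay below the lowest wild-type value. The log2 ratios were -0.63 and -0.53 in the age_matched set and -0.37 and -0.28 in the stage_matched set. Their mean was -0.45 ± 0.18 (SD, n = 2 sets, moderated limma SE 0.10, limma adjusted p = 0.0485), a level 1.37-fold lower in mutant pools. Ankrd37 stood 380th from the lowest of all genes tested.

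The Ankrd37 call lay close to the threshold. Without age_matched replicate 1 its adjusted p in limma was 0.342, without age_matched replicate 2 it was 0.0861, and without stage_matched replicate 1 it was 0.112, while the mean stayed between -0.43 and -0.48. In these fits 1 set rested on a single dye orientation, so a dye effect no longer cancelled within it. The Ankrd37 probe is placed at chr8:47082404-47082463 of mm9. The 250 bases before its RefSeq start are shown because it is the called HIF target. They lie at chr8:45999851-46000100 of GRCm38.p6 (minus strand), and the capitals mark the HIF core motif, ACGTG or GCGTG on either strand.
Ankrd37 promoter: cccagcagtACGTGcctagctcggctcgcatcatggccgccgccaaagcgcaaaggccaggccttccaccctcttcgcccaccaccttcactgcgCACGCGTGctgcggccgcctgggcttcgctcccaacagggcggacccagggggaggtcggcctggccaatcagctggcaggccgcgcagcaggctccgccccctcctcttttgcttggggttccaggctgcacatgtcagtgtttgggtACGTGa
There were 4 matches, beginning 241, 155, 152 and 6 bases before the start, of which those at 155 and 152 overlap on opposite strands. A match is a string of letters and was not read as a bound site.

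The prolyl hydroxylases of the pathway were the next group of targets. Egln1, the hydroxylase that acts on HIF alpha in most tissues, had -0.55 and -0.69 in the age_matched set and -0.05 and -0.29 in the stage_matched set, with a mean of -0.40 ± 0.31 (SD, n = 2 sets; limma adjusted p = 0.105). Egln3, a second hydroxylase, had a mean of -0.26 (limma adjusted p = 0.145). By their brightest probes both genes were negative on all 4 arrays, and neither passed the test. The second tested Egln1 probe had -0.47 and 0.01 in the age_matched set and -0.44 and -0.07 in the stage_matched set.

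The targets that act at mitochondria had negative means, with none called. Higd1a, a protein of the inner mitochondrial membrane, had -0.56 and -0.19 in the age_matched set and -0.70 and -0.11 in the stage_matched set, with a mean of -0.39 ± 0.02 (SD, n = 2 sets; limma adjusted p = 0.0544). Bnip3l, a receptor for the removal of mitochondria, had -0.47 and -0.27 in the age_matched set and -0.29 and -0.08 in the stage_matched set, with a mean of -0.28 ± 0.13 (SD, n = 2 sets; limma adjusted p = 0.141). In both genes every array was negative and the Cy5 array of each set gave the larger size. Bnip3, a related receptor, had -0.19 and -0.83 in the age_matched set and 0.03 and -0.11 in the stage_matched set, with a mean of -0.27 (adjusted p = 0.237).

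The remaining targets spanned both sides of 0 and none was called for mutant against wild type. Vegfa, the growth factor of blood vessels, had a mean of -0.21 and was negative on all 4 arrays by its brightest probe. The other tested Vegfa probes had 0.14 and 0.07 on age_matched replicate 2 and were negative on the other arrays. Adm, the vasodilator peptide adrenomedullin, had a mean of -0.02. Ndrg1, a stress-responsive gene of differentiation, had -0.24, and Ero1l, an oxidase of protein folding, had -0.18. Mxi1, an antagonist of MYC, had 0.03, and P4ha2, a collagen prolyl hydroxylase, had 0.10. Car9, a carbonic anhydrase and one of the genes most strongly tied to HIF, had 0.24 and 0.11 in the age_matched set and 0.16 and 0.11 in the stage_matched set. It was the 1 member with a positive ratio on all 4 arrays, with a mean of 0.15 (limma adjusted p = 0.365).

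The age_matched and stage_matched sets were compared by the difference of their ratios, age_matched minus stage_matched, with an error that comes from the dye-exchanged arrays of the same pools. That error is technical, has 1 residual degree of freedom and holds no variation between embryos. Moderation across genes made it almost the same for every member, with an SE from 0.175 (Ankrd37) to 0.177 (Ldha). A call of a set difference therefore followed the size of the difference, not how closely the gene's own arrays lay together. In 27 of 40 members (67.5%) the age_matched ratio was the lower of both, against 48.1% of all genes tested. The difference passed the test as lower in the age_matched set in 1 member (2.5%), against 0.779% of all genes tested. It passed as higher in the age_matched set in no member by limma, against 1.46% of all genes tested. At an unadjusted limma p under 0.05 the difference was lower in the age_matched set in 9 members (22.5%), against 4.65% of all genes tested, and higher in 0, against 6.46%. The HIF targets had a median of -0.35 in the age_matched set and -0.08 in the stage_matched set, and the heart muscle list had 11 of 13 genes called lower in the age_matched set than in the stage_matched set.

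By its brightest probe, the member that differed was P4ha1, the catalytic subunit of collagen prolyl 4-hydroxylase, which collagen needs to fold. Its normalized log2 intensity in mutant pools was 10.62 and 10.17 on the age_matched arrays, against 10.87 and 10.53 in wild-type pools. On the stage_matched arrays it was 11.21 and 11.05 in mutant pools, against 10.93 and 10.73 in wild-type pools. The log2 ratios were thus -0.26 and -0.36 in the age_matched set and 0.28 and 0.32 in the stage_matched set. The mutant pool was lower in the age_matched set and higher in the stage_matched set on every array.

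The difference for P4ha1 was -0.61 (moderated limma SE 0.18, limma adjusted p = 0.0279), and its mean over both sets was -0.0031 (limma adjusted p = 0.994). Its second tested probe gave -0.29 in the age_matched set and 0.18 in the stage_matched set, and its difference did not pass the test (limma adjusted p = 0.167). The call was also lost without background correction, with the scanner's processed signals and with median centring (limma adjusted p = 0.372, 0.226 and 1). Its brightest probe is placed at chr10:58834272-58834331 of mm9.

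The sets also differed in genes of the sex chromosomes. Xist, the RNA of the inactive X chromosome, had log2 ratios of 0.53 and 1.02 in the age_matched set and -0.75 and -1.25 in the stage_matched set. The Y-linked Ddx3y had -0.38 and -1.32 in the age_matched set and 0.58 and 0.24 in the stage_matched set. Of the 4 tested sex-linked genes, 3 were called lower and 1 higher in the age_matched set. Other check lists differed between the sets too: 3 of 7 red cell genes and 1 of 9 endothelial genes were called lower in the age_matched set. In the same set 2 of 3 maternal genes, 1 of 5 trophoblast genes and 2 of 12 whole-embryo markers were called higher. Prl8a2, a prolactin-family gene of the maternal decidua, had 0.77 and 0.25 in the age_matched set and -0.94 and -0.93 in the stage_matched set. The parts of embryo sex and of these tissues in the P4ha1 difference and in the lower age_matched ratios were not tested. By design, up to 5 somites of difference were allowed in the age_matched set, while the stage_matched set was paired by somite number. Developmental stage therefore cannot be told apart from the other differences between the sets.

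The 250 bases before the RefSeq start of P4ha1 are shown because it is the member called different between the sets by its brightest probe. They lie at chr10:59323046-59323295 of GRCm38.p6 (plus strand), with the HIF core motif in capitals.
P4ha1 promoter: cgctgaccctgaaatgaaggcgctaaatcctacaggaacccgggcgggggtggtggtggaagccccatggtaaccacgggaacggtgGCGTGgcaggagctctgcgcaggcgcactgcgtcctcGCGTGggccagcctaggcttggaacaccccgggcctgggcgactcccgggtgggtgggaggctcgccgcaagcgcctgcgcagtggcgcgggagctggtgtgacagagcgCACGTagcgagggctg
It held 3 matches, beginning 163, 126 and 16 bases before the start.

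**Figure D4:**
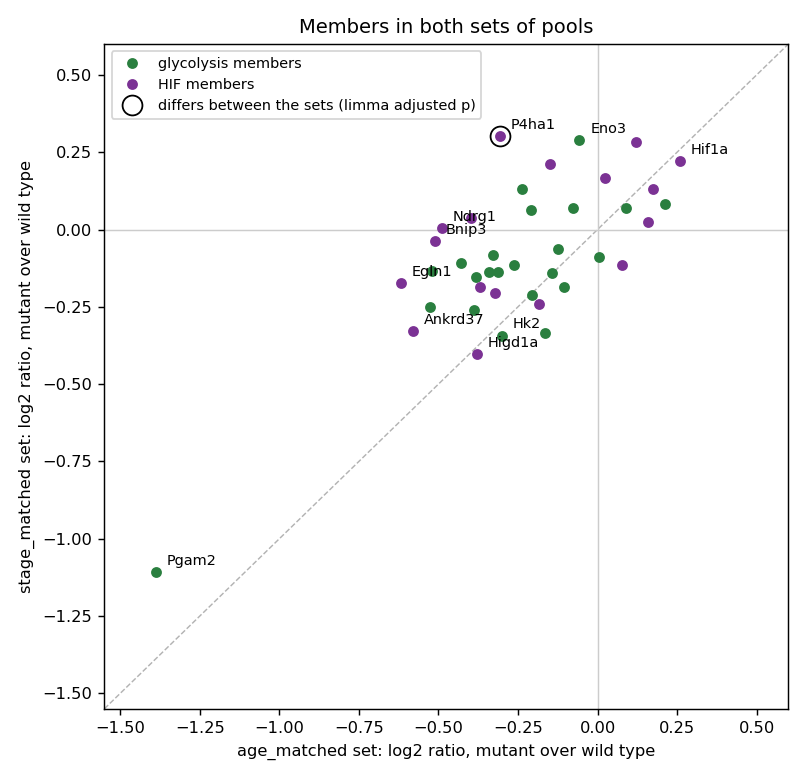
Each point is a member, with its log2 ratio in the age_matched set on the horizontal axis and in the stage_matched set on the vertical axis, and the dashed line marks equal ratios. Pgam2 lies at -1.39 and -1.11, apart from the other members, and P4ha1, circled, lies at -0.31 in the age_matched set and 0.30 in the stage_matched set.

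Promoters of 36 of the 40 members were in the RefSeq table (GRCm38.p6), with 52 start sites in all. Those of Bnip3l, Epas1, Ndrg1 and Slc2a3 were not matched. In the 250 bases before the start, ACGTG or GCGTG occurred on either strand in 42 of 52 member promoters (80.8%; 33 of 36 members), against 38.6% of all 32851 promoters of that length. The motif CACGTG, which contains ACGTG and is bound by MYC-type and other factors, was in 5 (9.62%), against 6.02% of all promoters. The motif TATAAA was in 0 of 52 member promoters, against 12.4% of all promoters. Median GC content was 60.4% in member promoters, against 52.4% in all, and the part of base composition in these shares was not tested.

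More than 1 probe was tested for 18 of the 40 members, and of 63 tested member probes limma called 4 lower and 0 higher, against 2.99% and 1.55% of all 21939 tested probes. Besides the probes of Pgam2 and Ankrd37, these were a dimmer probe each of Pkm2 and Pfkp. The Pkm2 probe, at chr9:59520400-59520459 of mm9, had -0.95 and -0.47 in the age_matched set and -0.85 and -1.39 in the stage_matched set, for a mean of -0.92 (limma adjusted p = 0.0118). The other 2 Pkm2 probes had means of -0.07 and -0.18. The dimmer probe was designed on a single cDNA. Neither it nor the brightest Pkm2 probe was designed on the reference transcript.

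The Pfkp probe, at chr13:6588296-6588355 of mm9 and also designed on a single cDNA, had -0.85 and -0.29 in the age_matched set and -0.82 and -1.05 in the stage_matched set, for a mean of -0.75 (limma adjusted p = 0.0189). The brightest Pfkp probe had -0.39 and the dimmest 0.09. Pfkp and Epas1, with 0.09 and -0.01, were the 2 members whose tested probes differed in sign. Which transcripts these probes read was not tested.

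The means of the 2 Higd1a probes were alike, at -0.39 and -0.37, but the dimmer probe had -0.43 and -0.93 in the age_matched set and -0.03 and -0.09 in the stage_matched set. Its difference between the sets passed the test (limma adjusted p = 0.0257), while that of the brightest probe did not (limma adjusted p = 0.984). With the P4ha1 probe, this made 2 of 63 member probes called lower in the age_matched set and 0 called higher, against 0.757% and 1.7% of all tested probes.

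For the remaining members the probe means lay closer together. Ldha had -0.15 and -0.41 (the second with adjusted p = 0.0697), Pdk1 had -0.27 and -0.37, Aldoa had -0.21 and -0.31, and Gapdh had -0.20 and -0.25. Slc2a3 had -0.23 and -0.35, Egln1 had -0.40 and -0.24, and both Bnip3l probes had -0.28. Vegfa had -0.21, -0.15 and -0.34, and Hk1 had -0.25, -0.08 and -0.10. In each of these 9 members all tested probes had negative means. Near 0, Gpi1 had -0.14 and -0.05, Ero1l had -0.18 and -0.14, and Pgk1 had -0.05 and -0.03 on overlapping probes, while Arnt had 0.20, 0.01 and 0.05.

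**Figure D5:**
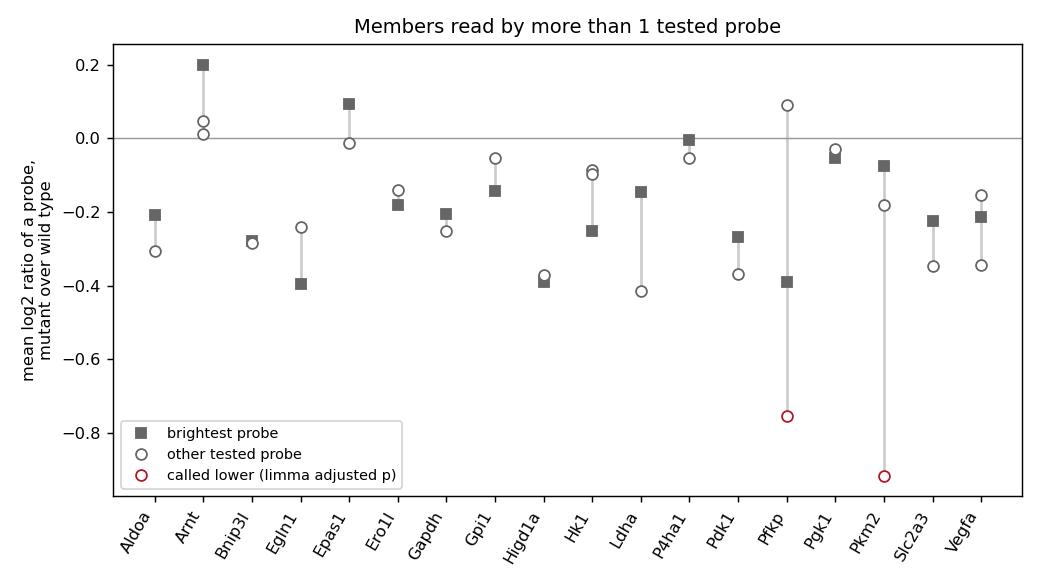
Each column is a member with more than 1 tested probe, and the vertical axis gives the mean log2 ratio, mutant over wild type, of the brightest probe (filled square) and of the other tested probes (open circles). The red circles of Pfkp at -0.75 and Pkm2 at -0.92 are the called probes that do not represent their gene.

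Genes of the same pathways outside the members were read from a list of 32 further glycolysis and neighbouring genes, of which 27 were tested. Of these, 3 were called lower and 1 higher, with a median of 0.02. Slc2a2, the glucose transporter GLUT2 of yolk sac endoderm and liver, had a mean of -1.61 (limma adjusted p = 0.000931). Bpgm, the bisphosphoglycerate mutase of red cells, had a mean of -0.49 (limma adjusted p = 0.0367). Its values were -0.06 and -1.11 in the age_matched set and -0.22 and -0.56 in the stage_matched set. In both sets the larger size came from the array with the mutant pool in Cy3. Gbe1, the branching enzyme of glycogen synthesis, had 0.62 (limma adjusted p = 0.0216).

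Markers of cells in which Slc2a2 and Bpgm are known were read on the same arrays. Slc2a2 is itself on the list of visceral endoderm and yolk sac, of which 13 of 14 genes were called lower with a median of -0.93; their summed linear intensity was 28690 to 32140 in mutant pools, against 67740 to 76210 in wild-type pools. Of the red cell markers 7 of 10 were tested, of which 2 were called lower and 5 were not called. Their median was -0.36, with 6 negative means and 1 positive mean. Their summed linear intensity was 3525 to 8526 in mutant pools, against 15260 to 18330 in wild-type pools. Gata1 and Nfe2 were among the markers of that list not above background. The part of these cells in the Slc2a2 and Bpgm results was not tested. Of 36 further HIF pathway genes and targets, 32 were tested and none was called by limma for mutant against wild type (6 lower and 3 higher at an unadjusted p under 0.05), with 19 negative means, 13 positive means and a median of -0.11. Their median was -0.22 in the age_matched set and -0.02 in the stage_matched set.

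Across all probes, 52.9 to 59.6% of mutant channels and 57.1 to 59.5% of wild-type channels were well above background, and 0 spots were saturated. The small number of arrays limits the precision. Among the check lists, 1 of 9 endothelial genes was called lower, limma called 0 of 5 tested trophoblast genes and 0 of 3 tested maternal genes (1 of each at an unadjusted p under 0.05), and 7 of 12 p53 targets were called higher with a median of 0.96. The Btaf1 probe had 0.20 and 0.05 in the age_matched set and 0.28 and -0.12 in the stage_matched set, for a mean of 0.10; a missense change need not alter the transcript level. Pgam1 and Mxi1 share chromosome 19 with Btaf1, at 4.91 and 16.4 Mb from it.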

How the data were processed

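Per the file headers, the deposited scanner files give spot intensity and background intensity for each dye, and the mean signal and median background used here carry no normalization. The authors' deposited value table holds log10 ratios with mutant on top. Set against the scanner's log10 ratio of processed signals, it showed a largest gap of 5e-06, and every column had a median of 0 and was assigned (0 left over). Feature Extraction is version 9.5.3 in the submitters' processing notes and 10.5.1.1 in the file headers; the series text names ArrayAssist and Excel without steps. All 4 arrays were on 1 slide with 1 scan.

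The deposited intensity values were turned into log2 ratios in R 4.3.3 with limma 3.58.1. Marked spots were dropped, normexp (offset 50) corrected the background, and loess (span 0.3, control spots at weight 0) removed dye bias array by array. Dye-exchanged arrays had their sign turned, and repeated spots were averaged per probe. A probe was tested if every mutant channel or every wild-type channel was well above background, which held for 21975 of 41174 probes. It also needed a ratio on all 4 arrays after marked spots were dropped. This left 21939 tested probes and 13599 genes. Genes outside the members were named through RefSeq (GRCm38.p6, names only).

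Mutant over wild type was tested on the 2 set means, with 1 residual and 6.901 prior degrees of freedom. The test was two-sided, and Benjamini-Hochberg adjustment covered all tested probes. The labels do not say that the sets used separate embryos, so p-values measure only the spread between these sets. Xist and Ddx3y had opposite signs in the sets on both arrays of each, so the sets did not hold all the same pools. The sets were also matched differently. How much of their spread is technical was not tested. The sets were compared in a fit of the 4 arrays that held set and dye orientation. The fit was run on simulated data with noise levels that were fixed and not taken from these arrays. For the set comparison the simulation held no variation between pools. It therefore does not measure the error of either fit on these arrays.

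Members and lists were chosen with earlier results of these data known. Every member is named with its mean. Values on all 4 arrays are given for called members, for the 12 with the largest absolute mean, and for a few others chosen after their values were seen. Other pathway genes are named if called, except 1 that is not reported here. Alternatives were no background correction, processed signals, the deposited log ratios, median centring, scaling between arrays, no filter, a filter on both channels, the mean over probes, each array left out, and the pair of pools as a random block.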

Additional observations from a re-analysis of the deposited data

Results flagged for a closer look

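P4ha1, the collagen prolyl 4-hydroxylase subunit, was the 1 member whose ratio differed between the sets by its brightest probe. Its log2 ratio of mutant over wild type was -0.31 in the age_matched set and 0.30 in the stage_matched set, and the difference, age_matched minus stage_matched, was -0.61 (limma adjusted p = 0.0279, from dye-exchanged arrays of the same pools).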

How the results depend on the processing

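Pgam2 was called lower under every alternative run. Of 480 values of single members, mutant over wild type, under alternatives, no called value changed sign, 468 kept their side of the threshold, 7 no longer passed it and 5 passed it newly. The main count of 2 members called lower became 1 (Pgam2) without background correction, with processed signals, with the deposited log ratios and with no filter on dim probes. It became 6 with the mean over probes, which added Higd1a, Hk2, Pfkp and Pkm2. It became 7 with the pair of pools as a random block, which counts the 4 arrays and added Egln1, Higd1a, Hk2, Pfkfb3 and Pfkp; arrays of the same pools had a consensus correlation of -0.3732. Leaving out 1 array gave 1 to 3 members called lower, with 3 (Higd1a added) without stage_matched replicate 2 and 1 without any of the others; in the fit without age_matched replicate 1, 11 genes in all were called lower. Calls over all genes moved too: 2.71% of genes were called lower as reported, 0.257% without background correction, 3.74% with processed signals, 0.997% with no filter, 4.42% with the mean over probes and 6.25% with the random block. No member was called higher under any alternative. The count of 1 member that differed between the sets (P4ha1) became 0 without background correction, with processed signals, with the deposited log ratios and with median centring. The median of the glycolysis members, -0.20 with all arrays, was -0.24 to -0.11 with 1 array left out, nearest 0 without stage_matched replicate 2. That of the HIF members, -0.18 with all arrays, was -0.17 to -0.12 with 1 array left out and -0.28 with median centring. Median centring also moved the median of all genes tested, from 0.02 to -0.06. With 1 array left out, its set held a single dye orientation, and a dye effect did not cancel there. Where the number of calls moved, the cause was not tested.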
